A study of Mus musculus with 9 samples.

Results

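The Hippo pathway genes described here were 10 members: the transcription factors Tead1, Tead2, Tead3 and Tead4, their coactivators Yap1 and Wwtr1, the kinases Lats1 and Lats2, and the target genes Amotl2 and Ankrd1. They were taken by gene symbol from the platform annotation, and all 22 probe sets that name only a member were used, of 34944 single-gene probe sets on the array. For Lats2 a further probe set, which also names Xpo4, was left out. Each gene was tested through its brightest probe set, which gave 10 of 18193 genes. Expression is given as log2 RMA values, so a difference of 1 is a 2-fold change, and the median probe set read 4.48.

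RNA came from SCCVII, a mouse tumour line that began as a spontaneous squamous carcinoma of the mouth in CH3 mice, as the labels spell the strain. IR is SCCVII recovered from tumours that grew in stroma irradiated before injection, NIR is SCCVII recovered from tumours in stroma left unirradiated, and PA is the parental culture from which both came. Each group had 3 arrays, and no treatment was applied to the cultured cells as far as the labels say. Nothing states whether the 3 arrays of a group were separate tumours, lines or dishes, so p-values measure only the spread between these samples, which may be technical.

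In the Hippo pathway the kinases STK3 and STK4 activate LATS1 and LATS2, which phosphorylate YAP1 and its relative TAZ, the product of Wwtr1. Phosphorylated YAP1 and TAZ are held in the cytoplasm or degraded. Unphosphorylated, they enter the nucleus and bind TEAD proteins, which carry the DNA-binding domain, at a short sequence known as the M-CAT element. Much of this control acts on the proteins, and the arrays measure only the mRNA of each gene.

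Array medians lay between 4.45 and 4.52. Across genes, the SD of the log2 difference was 0.129 to 0.230 for the 9 pairs of arrays within a group and 0.180 to 0.301 for the 27 pairs between groups. Of the epithelial markers, Krt8 (means ± SD over 3 arrays: IR 12.76 ± 0.095, NIR 12.72 ± 0.12, PA 12.67 ± 0.045) and Krt18 (11.96 ± 0.033, 11.39 ± 0.21 and 11.41 ± 0.030 in the same order) were bright, whereas Cdh1 read 3.29, 3.30 and 3.27 on average in IR, NIR and PA, below the median probe set. Krt18 rose in IR against NIR by 0.57 and against PA by 0.55 on the log2 scale (adjusted p = 0.0180 and 0.0146 by limma). The other 7 of the 8 epithelial markers were not called in these comparisons. In IR minus NIR, 5 of the 8 were positive, as were 50.5% of all genes, and Krt5, Krt14 and Cdh1 were negative. Epcam, Krt5 and Krt19 averaged 6.05, 4.93 and 4.90 over the 9 arrays. Cldn4 and Krt14 lay below the median probe set at 3.97 and 3.87. Of 8 fibroblast markers, Col1a2, Col3a1 and Pdgfra were bright in every group, with means over the PA arrays of 11.28, 11.25 and 9.15. Col1a1, Lum and Pdgfrb averaged 6.75, 5.99 and 5.72 over the 9 arrays, and Postn and Thy1 lay below the median probe set at 4.33 and 3.73. The mean of 9 macrophage markers reached 5.55 on array IR3, while IR1 and IR2 gave 5.00 and 5.05, the NIR arrays 4.98 to 5.11 and the PA arrays 4.78 to 4.90. Of these 9 markers, 4 had their highest value on IR3 and 5 on another array. Lyz2 read 8.25 on IR3 against 5.71 and 5.78 on IR1 and IR2, Cd68 5.83 against 4.81 and 4.71, and Tyrobp 5.39 against 4.85 and 4.72. Ptprc, Adgre1, Csf1r, Cd14 and Fcer1g were not highest on IR3, and Ptprc, Adgre1 and Itgam lay below the median probe set. Cd14, the brightest of the 9, averaged 7.41 over the 9 arrays and was highest on NIR1. In bulk samples, fewer cells of a type and less RNA per cell cannot be told apart.

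The M-CAT core was looked for in the promoters because several members are themselves known TEAD targets. RefSeq promoter windows (GRCm38.p6, 250 bases before to 50 after a gene's start) were matched for 8 of the 10 members, with 12 windows in all. GGAATG, or CATTCC on the other strand, was present in 6 of these 8 genes and in 16.6% of all 27025 genes with a window. By window the figures were 8 of 12 and 14.7% of all 32851, and some windows of a gene overlap. Of the YAP1 and TEAD target genes described below, 12 had a window, and 4 of these (33.3%) held the motif, in 4 of 13 windows. The AP-1 motif TGANTCA was in 0 of the 12 member windows and in 7.81% of all windows. Such matches are descriptions of the letters only. The windows of Ankrd1, with 2 matches, of Amotl2, with 1, and of Yap1, with 1, are printed below because these genes hold the target readouts and the clearest probe set difference of the coactivators. Capitals mark the matches, and sequences run 5′ to 3′ on the gene's strand.
Ankrd1 promoter, chr19:36119795-36120094, minus strand:
Ankrd1: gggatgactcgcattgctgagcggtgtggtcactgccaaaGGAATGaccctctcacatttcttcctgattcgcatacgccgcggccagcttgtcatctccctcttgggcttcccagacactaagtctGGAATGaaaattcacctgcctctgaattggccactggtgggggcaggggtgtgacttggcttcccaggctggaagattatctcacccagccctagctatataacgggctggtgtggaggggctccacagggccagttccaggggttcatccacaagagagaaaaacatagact
Amotl2 promoter, chr9:102717554-102717853, plus strand:
Amotl2: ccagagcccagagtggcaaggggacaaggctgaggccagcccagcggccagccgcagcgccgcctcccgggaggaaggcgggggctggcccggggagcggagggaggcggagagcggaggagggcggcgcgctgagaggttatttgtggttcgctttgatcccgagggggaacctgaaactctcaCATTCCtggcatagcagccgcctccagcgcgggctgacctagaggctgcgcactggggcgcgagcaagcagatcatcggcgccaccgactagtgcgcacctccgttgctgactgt
Yap1 promoter, chr9:8004547-8004846, minus strand:
Yap1: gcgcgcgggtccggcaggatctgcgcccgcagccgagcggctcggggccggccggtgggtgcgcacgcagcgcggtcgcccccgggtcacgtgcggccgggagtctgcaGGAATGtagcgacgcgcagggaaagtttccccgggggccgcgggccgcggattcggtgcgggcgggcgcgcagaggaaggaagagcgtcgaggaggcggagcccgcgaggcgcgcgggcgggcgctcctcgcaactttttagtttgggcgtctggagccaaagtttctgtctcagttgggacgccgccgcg
The Ankrd1 matches begin 210 and 123 bases before the start of the gene, the Amotl2 match 65 bases before it and the Yap1 match 141 bases before it.

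Between the groups, Tead1 was the only member whose brightest probe set passed the test, and it rose in NIR against PA. In IR against NIR, 0 of 10 members were called by limma at an adjusted p below 0.05, where 1.65% of all 18193 genes were called, and 4 of 10 had an unadjusted p below 0.05, as had 15.9% of all genes. In IR against PA, 0 of 10 were called, against 1.06% of all genes, and 5 of 10 had an unadjusted p below 0.05, against 8.59%. In NIR against PA, 1 of 10 was called, against 1.3% of all genes (0.379% in the higher direction), and 2 of 10 had an unadjusted p below 0.05, against 12.1%. The median log2 fold change of the members was -0.023 in IR minus NIR, 0.079 in IR minus PA and 0.034 in NIR minus PA, where that of all genes was 0.0014, 0.0043 and 0.0046. The F test over the 3 groups called 1 of 10 members, Tead1 (adjusted p = 0.0195 by limma), and 2.34% of all genes. The median size of change, whatever its sign, was 0.20, 0.18 and 0.070 for the members and 0.085, 0.070 and 0.079 for all genes. Only 1 of the 10 members lay below the median probe set, and all genes were not matched to the members for brightness. IR minus PA shares its PA arrays with NIR minus PA, and its IR arrays with IR minus NIR.

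**Figure D1:**
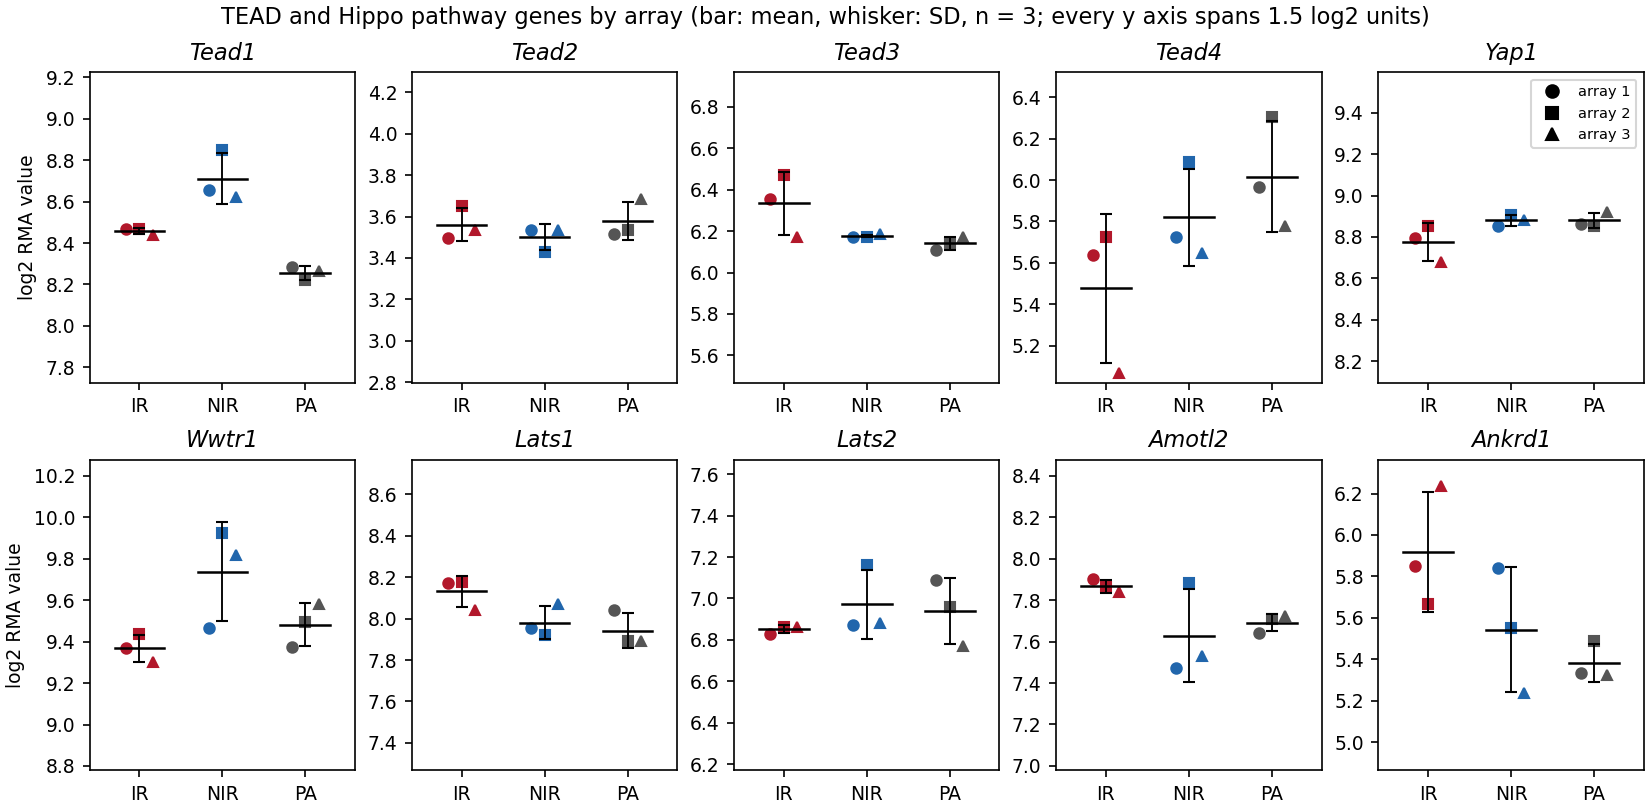
The log2 RMA value of the brightest probe set of each of the 10 members on the y axis, by group (IR, NIR, PA) on the x axis. Symbols are the arrays 1 to 3 of a group, bars the mean and whiskers the SD (n = 3). The 3 groups of Tead1 do not overlap, while IR3 lies lowest for Tead4 and highest for Ankrd1.

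Among the TEAD factors, Tead1 was highest in NIR, intermediate in IR and lowest in PA. Its brightest probe set (1429556_at, Entrez Gene 21676) read 8.47, 8.47 and 8.44 in IR1 to IR3, 8.66, 8.85 and 8.62 in NIR1 to NIR3, and 8.28, 8.22 and 8.27 in PA1 to PA3. No array of a group overlapped another group. Tead1 was 1.37-fold higher in NIR than in PA (0.45 on the log2 scale with an SE of 0.074, adjusted p = 0.0102 by limma). It was lower in IR than in NIR by a log2 difference of -0.25 (95% interval -0.41 to -0.09), which did not pass (limma adjusted p = 0.114). Nor did the IR minus PA difference of 0.20 (0.04 to 0.36, limma adjusted p = 0.413).

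The second Tead1 probe set, 1423434_at, was dimmer and did not show the difference. It had means ± SD of 5.00 ± 0.065 over the 3 IR arrays, 5.10 ± 0.036 over the 3 NIR arrays and 5.08 ± 0.030 over the 3 PA arrays, and NIR minus PA was 0.02. With the mean of both probe sets the NIR minus PA difference was 0.24 and no longer passed (limma adjusted p = 0.0995), and the call was also lost without PA2 (0.44, limma adjusted p = 0.0580). The 3 genes whose centred values lay closest to those of Tead1 over the 9 arrays were Nin, Pabpc4 and Nap1l1, at root mean square differences of 0.047, 0.054 and 0.055, where Tead1 itself varied by 0.20 around its mean. The mean of 8 fibroblast markers was 7.35 to 7.46 in IR, 7.21 to 7.64 in NIR and 7.08 to 7.20 in PA. Lum was called higher in NIR than in PA (log2 fold change 1.29, limma adjusted p = 0.0241), and the other 7 were not called there. In NIR minus PA, 7 of the 8 fibroblast markers were positive. In IR minus NIR, 3 of the 8 were positive and 0 were called. The mean of 6 endothelial markers was 4.33 to 4.35 in IR, 4.39 to 4.58 in NIR and 4.34 to 4.43 in PA, and 4 of the 6 (Pecam1, Tek, Tie1 and Emcn) lay below the median probe set. Cdh5, the brightest of them, read 5.78, 5.74 and 6.32 in IR, 6.65, 6.67 and 6.31 in NIR, and 5.96, 5.81 and 5.95 in PA. It was highest in NIR, as were Tead1 and Wwtr1, at 0.64 in NIR minus PA and -0.60 in IR minus NIR (adjusted p = 0.0631 and 0.0682 by limma). The other endothelial markers did not all follow Cdh5. Of the 6, 3 were positive in NIR minus PA, with a median of -0.014. Pecam1, Tie1 and Emcn were negative there (-0.040, -0.15 and -0.041). In IR minus NIR, 2 of the 6 were positive, Tie1 and Emcn. Over all genes 51.6% and 50.5% were positive in these comparisons. The part of the fibroblast and endothelial markers in the Tead1 and Wwtr1 values was not tested.

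Tead4 had its lowest group mean in IR, with IR3 the lowest array. Its brightest probe set (1426337_a_at) read 5.64, 5.72 and 5.07 in IR, 5.72, 6.09 and 5.65 in NIR, and 5.97, 6.30 and 5.78 in PA. All IR arrays lay below all PA arrays, and IR overlapped NIR. The IR minus PA difference was -0.54 (SE 0.18, 95% interval -0.94 to -0.14, limma adjusted p = 0.340), and -0.33 without IR3. The second Tead4 probe set, 1460683_at, also had its lowest value on IR3, at 4.67, and gave -0.15 for IR minus PA with IR3 and 0.041 without it. The mean of the 9 macrophage markers was highest on IR3 too. Of these markers, 4 were highest there (Lyz2, Cd68, Tyrobp and Itgam) and 5 on another array. The part of the macrophage markers in the Tead4 values was not tested.

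Tead3 and Tead2 did not pass in any comparison. Tead3 read 6.36, 6.47 and 6.17 in IR, 6.17, 6.17 and 6.18 in NIR, and 6.11, 6.14 and 6.17 in PA, so that IR1 and IR2 stood above the other arrays and IR3 among them. Its IR minus NIR difference was 0.16 (95% interval -0.02 to 0.33) and its IR minus PA difference 0.19 (0.02 to 0.37), with limma adjusted p of 0.374 and 0.516. Tead2 read between 3.43 and 3.69 on all 9 arrays, where 21.9% of probe sets were dimmer, and its differences ran from -0.077 to 0.059. At such a level the array does not show whether Tead2 mRNA was present.

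**Figure D2:**
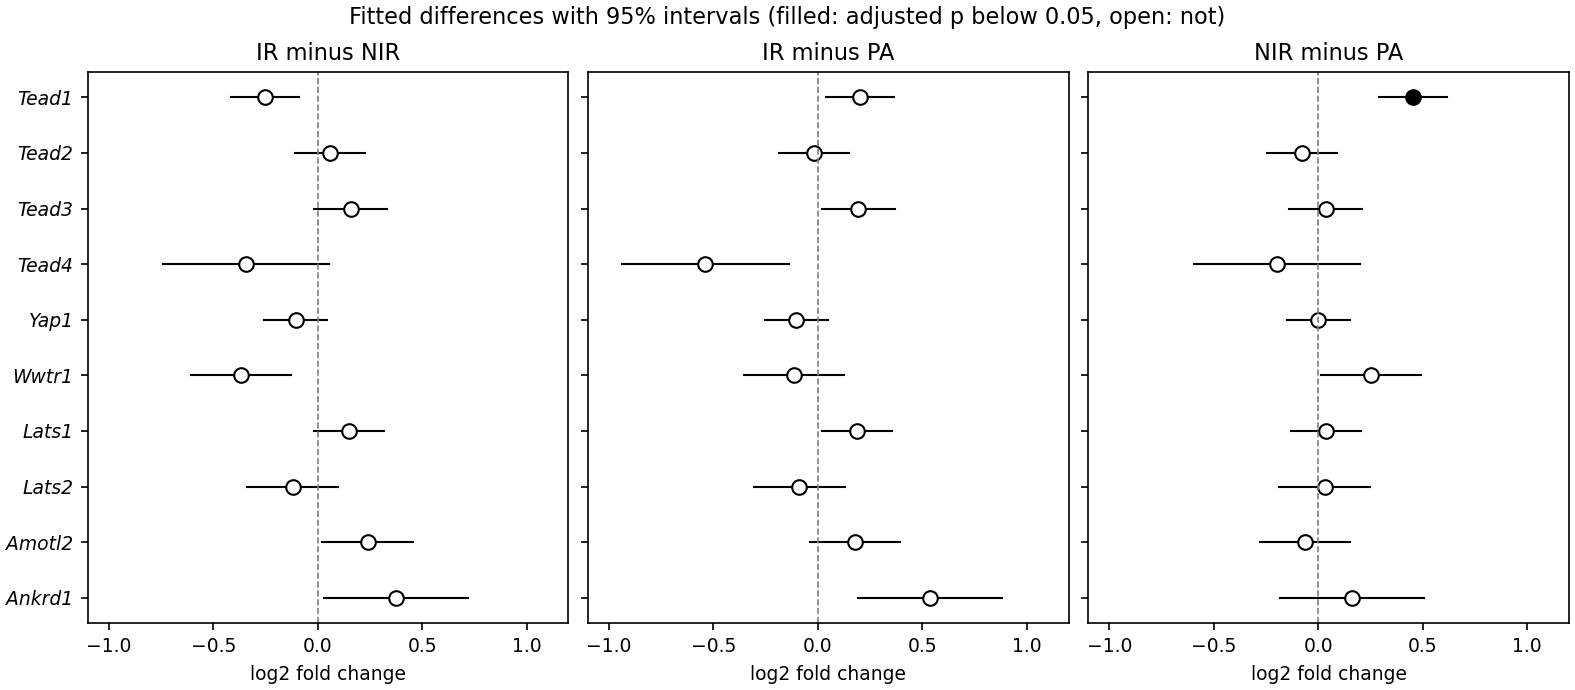
Fitted log2 fold changes of the 10 members (x axis) in IR minus NIR, IR minus PA and NIR minus PA, with 95% intervals from limma that are not adjusted for the number of genes. The filled point is Tead1 in NIR minus PA (0.45), the only one with an adjusted p below 0.05, and open points did not pass.

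Of the coactivators, Yap1 was lower in IR by the dimmer of its probe sets and not by the brighter. The probe set 1416487_a_at read 6.95, 6.91 and 6.92 in IR, 7.51, 7.33 and 7.28 in NIR, and 7.28, 7.48 and 7.29 in PA. Every IR array lay below every NIR and PA array. In the fit over all 34944 probe sets it fell in IR against NIR (-0.45 with an SE of 0.083, adjusted p = 0.0336 by limma) and against PA (-0.42, same SE, adjusted p = 0.0455 by limma), and NIR minus PA was 0.02. Of the 22 member probe sets, 1 was called in each comparison: this Yap1 probe set in both comparisons with IR and the bright Tead1 probe set in NIR against PA. The shares of all probe sets called were 0.881% in IR minus NIR, 0.69% in IR minus PA and 0.836% in NIR minus PA.

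The brighter Yap1 probe set, 1448363_at, read 8.80, 8.85 and 8.68 in IR, 8.85, 8.91 and 8.88 in NIR, and 8.86, 8.85 and 8.92 in PA. IR3 was the lowest of the 9 arrays and the groups overlapped. Its difference was -0.10 both in IR minus NIR and in IR minus PA (95% interval -0.26 to 0.05 in each), with limma adjusted p of 0.520 and 0.760. The platform annotation gives both probe sets the same RefSeq transcript. With the mean of both, the IR minus NIR difference was -0.28 and passed (limma adjusted p = 0.0464). The calls of the dimmer probe set lay near the threshold. In IR minus PA the call was lost with all 9 arrays after median centring, a second quantile normalization, and trend and robust settings (limma adjusted p = 0.0590, 0.0501 and 0.0575). In IR minus NIR, 2 of the 9 fits that left out an array kept the call, and in IR minus PA 1 of 9 did, with log2 differences of -0.49 to -0.38 and -0.46 to -0.36 and limma adjusted p up to 0.105 and 0.218.

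Wwtr1, the gene of TAZ, was bright on all arrays and gave its highest values in NIR. Its brightest probe set (1417817_a_at) read 9.37, 9.43 and 9.30 in IR, 9.47, 9.92 and 9.82 in NIR, and 9.37, 9.49 and 9.58 in PA. NIR2 and NIR3 stood apart from the other arrays, and NIR1 lay just above the IR arrays and within the range of PA. IR minus NIR was -0.37 (SE 0.11, 95% interval -0.61 to -0.13), which did not pass (limma adjusted p = 0.118), and without NIR1 the difference was -0.50 and passed (adjusted p = 0.0402 by limma). The probe set 1437155_a_at showed the same order of the NIR arrays and an IR minus NIR difference of -0.40 (limma adjusted p = 0.121). The third, 1417818_at, gave -0.10, with IR and NIR overlapping.

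**Figure D3:**
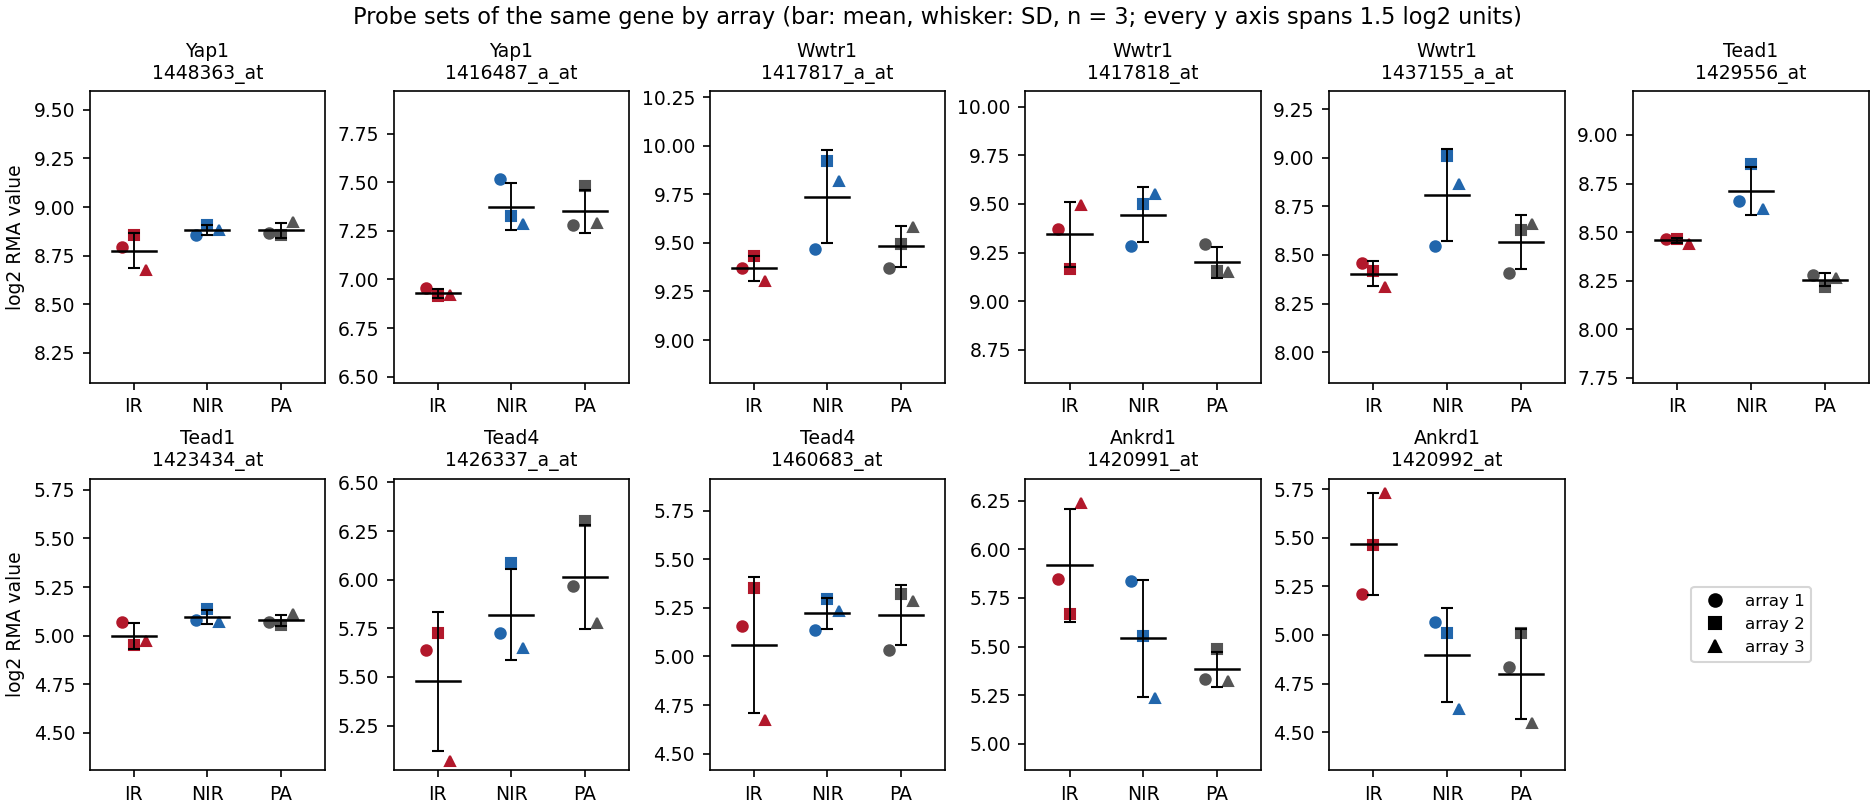
The log2 RMA value (y axis) of every single-gene probe set of Yap1, Wwtr1, Tead1, Tead4 and Ankrd1 by group (x axis), with arrays as symbols, means as bars and SDs as whiskers (n = 3). The Yap1 probe set 1416487_a_at reads 6.91 to 6.95 in IR and 7.28 to 7.51 in NIR and PA, a gap that the brighter Yap1 probe set does not have.

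The LATS kinases, which phosphorylate YAP1 and TAZ, did not pass in any comparison. Lats1 (1435739_at) read 8.17, 8.18 and 8.04 in IR, 7.95, 7.92 and 8.07 in NIR, and 8.04, 7.89 and 7.89 in PA. IR1 and IR2 were the highest of the 9 arrays and IR3 lay among the rest. Its differences were 0.15 in IR minus NIR (95% interval -0.02 to 0.32) and 0.19 in IR minus PA (0.02 to 0.36), with limma adjusted p of 0.380 and 0.502. The other Lats1 probe set was near the median probe set, with group means of 4.42 to 4.48.

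Lats2, which is also a known target of YAP1 and TEAD, had 6 probe sets that did not move together. The brightest (1419678_at) read 6.83, 6.86 and 6.86 in IR, 6.87, 7.16 and 6.88 in NIR, and 7.09, 6.96 and 6.77 in PA, an IR minus NIR difference of -0.12 (95% interval -0.34 to 0.10). The next, 1439441_x_at, which can bind related transcripts, had means ± SD of 6.15 ± 0.074 over the 3 IR arrays, 5.87 ± 0.22 over the 3 NIR arrays and 6.32 ± 0.13 over the 3 PA arrays. It was lowest in NIR, with NIR minus PA at -0.45 and no overlap of these groups, and did not pass (limma adjusted p = 0.114). Its IR minus NIR difference was 0.28, also without overlap, and did not pass either (limma adjusted p = 0.276). A dim one, 1425420_s_at, read 3.66 to 3.83 in IR and 3.69 to 3.83 in NIR, against 3.96 to 4.07 in PA (limma adjusted p = 0.193 and 0.178). Of the 6 probe sets, 3 lay below the median probe set of 4.48.

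Amotl2 encodes an angiomotin family protein that binds YAP1, and Ankrd1 an ankyrin repeat protein of muscle and other cells that is widely used as a readout of YAP1 and TAZ activity. Both gave their highest group means in IR, and neither passed. Amotl2 (1452387_a_at) read 7.90, 7.86 and 7.84 in IR, 7.47, 7.89 and 7.53 in NIR, and 7.64, 7.71 and 7.72 in PA. All IR arrays were above all PA arrays, and NIR2 alone of the NIR arrays reached the IR level. IR minus NIR was 0.24 (95% interval 0.02 to 0.46, limma adjusted p = 0.260), or 0.37 without NIR2 (limma adjusted p = 0.0441).

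Ankrd1 was read by a pair of probe sets that ordered the groups alike. The brighter (1420991_at) read 5.85, 5.67 and 6.24 in IR, 5.84, 5.55 and 5.24 in NIR, and 5.33, 5.49 and 5.33 in PA. The other (1420992_at) read 5.21, 5.46 and 5.73 in IR, 5.06, 5.01 and 4.62 in NIR, and 4.84, 5.01 and 4.55 in PA. By both, every IR array was above every PA array, and by the second also above every NIR array. IR minus PA was 0.54 (SE 0.16, 95% interval 0.19 to 0.88, limma adjusted p = 0.219) and 0.67 (0.33 to 1.01, limma adjusted p = 0.109), and IR minus NIR was 0.37 and 0.57 (limma adjusted p = 0.271 and 0.115). Without IR3, the highest array by both, IR minus PA was 0.38 and 0.54. The mean of 8 striated muscle markers was 5.24 to 5.30 in IR, 5.18 to 5.27 in NIR and 5.11 to 5.24 in PA, with 3 of the 8 below the median probe set. Ckm, the brightest of them, read 8.19, 8.06 and 8.40 in IR, 7.92, 7.81 and 7.98 in NIR, and 7.79, 7.77 and 7.90 in PA. Every IR array lay above every NIR and PA array and IR3 was the highest, with IR minus PA at 0.40 and IR minus NIR at 0.31 (adjusted p = 0.0753 and 0.113 by limma). The other muscle markers did not all follow Ckm. Of the 8, 4 were positive in IR minus NIR and 6 in IR minus PA, as were 50.5% and 51.9% of all genes. Their median log2 fold changes were -0.0013 and 0.069, and 0 of the 8 were called. The part of the muscle and macrophage markers in the Ankrd1 values was not tested.

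By their brightest probe sets, members whose groups did not overlap were 3 of 10 in IR against NIR, all lower in IR (Tead1, Wwtr1 and Lats2). Of all genes, 18.1% did not overlap there. Lats2 was separated narrowly, at 6.865 for the highest IR array and 6.870 for the lowest NIR array, and its probe set 1439441_x_at was higher in IR. Members without overlap were 4 of 10 in IR against PA (Tead1, Amotl2 and Ankrd1 higher in IR and Tead4 lower), against 14.7% of all genes. In NIR against PA it was 1 of 10, Tead1, against 15.5%.

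Other genes of the pathway were read from lists of upstream regulators, of partners of YAP1 and TEAD, and of their target genes. Of 17 measured upstream regulators, 0 were called by limma in any comparison, with 5, 1 and 6 at an unadjusted p below 0.05 in IR minus NIR, IR minus PA and NIR minus PA. Over all genes 1.65%, 1.06% and 1.3% were called, and 15.9%, 8.59% and 12.1% had such an unadjusted p. Their median log2 fold changes were -0.083, 0.020 and 0.14, and 13 of 17 were positive in NIR minus PA, as were 51.6% of all genes. Those with the lowest p in IR minus NIR were Wwc1, a scaffold that promotes LATS activity, at -0.43 (limma adjusted p = 0.0781), and Rassf1, a binding partner of the STK kinases, at -0.29 (limma adjusted p = 0.0954). Wwc1 read 7.92, 7.71 and 7.67 in IR, 8.40, 8.24 and 7.95 in NIR, and 7.95, 7.98 and 7.92 in PA. IR and NIR were separated narrowly, at 7.924 for IR1 and 7.945 for NIR3, and both overlapped PA.

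Of 15 measured partners and modifiers, 0 were called by limma in any comparison, with 2, 1 and 3 at an unadjusted p below 0.05, to be read against the same shares of all genes (15.9%, 8.59% and 12.1%). The lowest p in IR minus NIR were those of Amot, the founding angiomotin, at 0.53 (limma adjusted p = 0.0820), and of Ajuba, a LIM protein that inhibits LATS, at 0.28 (limma adjusted p = 0.165). Amot read 5.21, 5.14 and 5.70 in IR, 4.61, 4.85 and 5.00 in NIR, and 5.04, 5.07 and 5.14 in PA. IR3 stood above the other arrays, and IR overlapped PA. Ajuba read 8.74, 8.79 and 8.71 in IR, 8.36, 8.67 and 8.37 in NIR, and 8.82, 8.97 and 8.74 in PA, so that NIR was the lowest group without overlap.

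Of 19 YAP1 and TEAD target genes, all measured, 1 rose in IR against NIR, 1 rose in IR against PA and 1 fell in NIR against PA, and in each case it was Ccn1. The shares of all genes called in these directions were 0.786%, 0.297% and 0.918%. The list's median log2 fold changes were 0.027, -0.011 and 0.015. Ccn1, which encodes a secreted matrix protein, was chosen for follow-up by the study itself on these samples and is not independent evidence of a direction, and its probe set can bind related transcripts. It read 8.87, 8.94 and 8.91 in IR, 7.31, 7.02 and 7.26 in NIR, and 8.22, 8.22 and 8.24 in PA. The differences were 1.71 in IR minus NIR, 0.69 in IR minus PA and -1.03 in NIR minus PA (limma adjusted p = 2.56e-06, 0.00102 and 7.25e-05).

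Ccn1 was lowest in NIR, where Tead1 and Wwtr1 had their highest group means. The next lowest p of the targets in IR minus NIR was that of Ccn2, another CCN family gene, at 0.43 (limma adjusted p = 0.0673). Its probe set was dim, with 27.5% of probe sets dimmer, and had group means of 3.91 in IR, 3.48 in NIR and 3.67 in PA. The IR arrays read 4.18, 3.87 and 3.68, so that IR1 was the highest and IR3 lay within the range of PA. Of the 18 targets other than Ccn1, none passed in a comparison by limma.

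**Figure D4:**
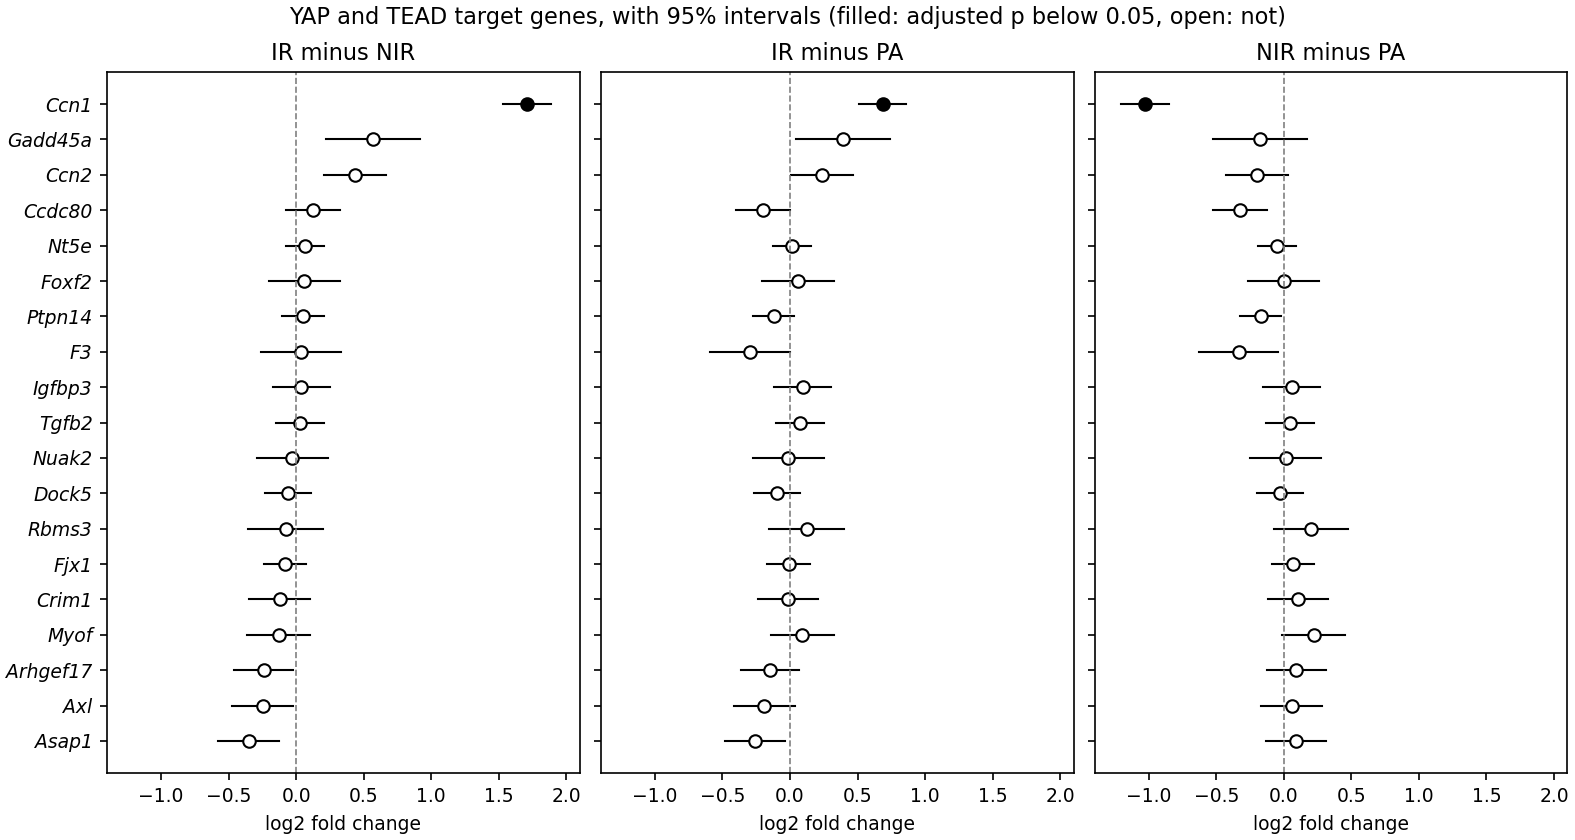
Fitted log2 fold changes (x axis) of 19 YAP1 and TEAD target genes in IR minus NIR, IR minus PA and NIR minus PA, with 95% intervals not adjusted for the number of genes. Filled points passed at an adjusted p below 0.05, and these are Ccn1 at 1.71, 0.69 and -1.03.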

How the data were processed

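RNA from 9 SCCVII samples was hybridized to Affymetrix mouse arrays. The authors deposited log2 expression values made with RMA, per the submitters' processing notes, with no version or settings given. These log2 values ran from 2.47 to 14.0 and were used as deposited. Of 45100 probe sets, 34944 named 1 gene. Symbols were updated by Entrez identifier against a RefSeq table (34740 matched). Each of 18193 genes was tested through the probe set with the highest mean, and all single-gene probe sets were tested in a second fit.

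All arrays entered one limma 3.58.1 fit in R 4.3.3 (lmFit and eBayes on group means, without covariates, 2-sided). The residual degrees of freedom were 6 and the prior ones 5.48. P-values were adjusted by Benjamini-Hochberg over all genes or probe sets, at a threshold of 0.05. The procedure was tested on simulated data, with recovery required only for true differences larger than any seen in the members. No read depth applies to arrays, and precision is limited by how many there were.

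The members and lists were chosen with earlier results of these data known. The text names all members, list genes called in any comparison, 2 genes of lowest p in IR minus NIR for lists with under 2 calls, and the 3 genes nearest to a called member. Marker genes were named where a list was described, and the Wwtr1, Lats2 and Tead1 probe sets other than the brightest were described after their values were seen. Alternatives were other probe set rules, a signal filter, centring, quantile normalization, trend and robust settings, only the 2 groups compared, a block for the replicate number, and each array left out in turn. Figures used matplotlib 3.10.9.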

Additional observations from a re-analysis of the deposited data

How the results depend on the processing

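Calls depended on which arrays entered. Leaving out each array moved the genes called to 77 to 271 in IR minus NIR, 99 to 214 in IR minus PA, 121 to 370 in NIR minus PA and 195 to 425 by the F test, where all arrays gave 300, 192, 236 and 426. Members called ranged from 0 to 1 in IR minus NIR (Wwtr1 without NIR1, Amotl2 without NIR2), were 0 in every such fit of IR minus PA, and ranged from 0 to 1 in NIR minus PA (Tead1 lost without PA2, 0.44). Tead1 in NIR minus PA ranged from 0.38 to 0.50, and the Yap1 probe set 1416487_a_at from -0.49 to -0.38 in IR minus NIR and from -0.46 to -0.36 in IR minus PA. That probe set lost its IR minus PA call under median centring (-0.44), a second quantile normalization (-0.41) and trend and robust settings (-0.42), and its IR minus NIR call with the compared groups alone (-0.45). With the compared groups alone 11 genes were called in IR minus NIR, and with every probe set tested 199. With the mean of probe sets 1 member was called in IR minus NIR (Yap1) and 0 in NIR minus PA (Tead1 at 0.24). The causes were not tested.

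Same-numbered arrays of different groups did not deviate together (correlations over genes of -0.20 to 0.097, 0 of 9 above 0.1). Differently numbered ones gave -0.12 to 0.25. The deviations within a group are tied to each other through its mean, so this check cannot settle whether the numbers pair the samples. With the number as a replicate block, 230, 164 and 203 genes were called in IR minus NIR, IR minus PA and NIR minus PA. The members called in IR minus PA became 1 (Tead4, -0.54, limma adjusted p = 0.0393), and the Yap1 probe set lost both calls (-0.45 and -0.42).

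Signs turned for values that were never called, many of them near 0. The Tead4 probe set 1460683_at was further from 0, at -0.16 in IR minus NIR and -0.15 in IR minus PA, and turned without IR3. With the mean of probe sets, signs turned for Lats2 (0.0053 in IR minus NIR, -0.14 in NIR minus PA) and Yap1 (0.012 in NIR minus PA, and 0.013 after a second quantile normalization). The Tead4 probe set 1460683_at in NIR minus PA gave -0.00056 with centring and -0.0040 with quantile normalization. Without an array each, the ranges that crossed 0 in IR minus NIR were those of the Lats2 probe sets 1426156_at (-0.052 to 0.013), 1425420_s_at (-0.061 to 0.021) and 1419679_at (-0.028 to 0.079), Tead4 1460683_at (-0.31 to 0.032) and Lats1 1427679_at (-0.039 to 0.080). In IR minus PA they were Tead2 (-0.062 to 0.035), Lats2 1426156_at (-0.092 to 0.046) and Tead4 1460683_at (-0.30 to 0.041). In NIR minus PA they were Yap1 (-0.013 to 0.021), Amotl2 (-0.19 to 0.016), Lats2 (-0.065 to 0.11), Lats1 (-0.0063 to 0.088), Yap1 1416487_a_at (-0.045 to 0.088), Lats1 1427679_at (-0.023 to 0.096), Lats2 1437101_at (-0.13 to 0.048) and 1426156_at (-0.081 to 0.057), Tead1 1423434_at (-0.0021 to 0.035), Tead4 1460683_at (-0.081 to 0.064) and Ankrd1 1420992_at (-0.025 to 0.24). Of 1041 other fits of member differences, 976 kept the sign and the side of the threshold. Most of these were differences that were not called with all arrays and stayed uncalled, so the count says little about the calls. Tead1 in NIR minus PA kept its call in 8 of 9 fits without an array and in 8 of 9 others. The Yap1 probe set 1416487_a_at kept it in 2 of 9 and 3 of 5 in IR minus NIR. In IR minus PA that probe set kept it in 1 of 9 and 1 of 5. The signal filter gave no value for Tead2.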
